A study of Rattus norvegicus with 8 samples.

Results

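Genes of glycolysis and of the response to low oxygen were followed in the periodontal ligament (PDL), the connective tissue that holds the tooth root in its socket, of rats before and after the teeth meet in the bite. The set holds 32 genes chosen by name: glucose and lactate transporters, the enzymes from hexokinase to lactate dehydrogenase, the oxygen sensors and transcription factors of hypoxia, and well-known targets of those factors. Of the 32, 31 were among the 17337 genes of the deposited count table and 29 passed the filter on low counts, which asks for enough counts in 4 libraries of any age; Egln1 was not analysed here. Cervical PDL was cut out by laser micro-dissection from untreated animals with normal growth, 4 at postnatal day 18 (P18) and 4 at postnatal day 28 (P28), and each library stands for 1 animal. Occlusal contact is established between these ages, per the series' design text. Strain, genotype and sex are not given in the labels, and age and occlusal contact cannot be told apart in this design.

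Glycolysis splits glucose into pyruvate in the cytosol, and lactate dehydrogenase turns pyruvate into lactate where mitochondria do not take it up. Cells sense oxygen through prolyl hydroxylases of the EGLN family, which mark the alpha subunits of hypoxia-inducible factor (HIF) for destruction while oxygen is present. When oxygen is short, HIF-1 alpha (Hif1a) or HIF-2 alpha (Epas1) pairs with Arnt and switches on glycolytic enzymes, Vegfa and other genes. HIF-1 alpha is set largely at the level of the protein, which RNA counts do not show. The PDL is a vascular ligament that carries pulses of compression in the bite.

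Total counts per library ran from 5252693 (P28 replicate 4) to 26645656 (P18 replicate 2). P28 replicate 4 was the shallowest library and stood apart, with correlations across genes of 0.750 to 0.766 with the other P28 libraries against 0.813 to 0.827 among those. Levels are given as CPM, a gene's counts as a share of all counts of its library, scaled between libraries by TMM; values listed for an age are in the order of replicates 1 to 4, and they are not divided by transcript length, so they are compared within a gene and not between genes. As a sum, ligament markers were abundant in all 8 libraries: 9 fibroblast genes summed to 96077 to 137379 CPM at P18 and to 138017 to 196187 CPM at P28. The collagen genes Col1a1 (37290 to 82845 CPM) and Col3a1 (30554 to 79652 CPM) carried most of the sum in every library. Single markers were less even, and Scx ran from 3.33 to 172 CPM over the 8 libraries. Tnmd lay at 479 to 734 CPM at P18 and at 51.1 to 133 CPM at P28. Fmod went the other way, from 13.3 to 103 CPM at P18 to 281 to 407 CPM at P28. Of these 9 markers, Aspn did not reach the count filter. In captures of bulk tissue, fewer cells of a type and less RNA per cell cannot be told apart.

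No gene of the set passed the test between the ages. Of 29 tested members, 0 were called higher and 0 lower at P28 by the quasi-likelihood test of edgeR (adjusted p under 0.05 over all 10472 tested genes), where 0.516% of all tested genes were called higher and 0.42% lower. An unadjusted p under 0.05 was found for 4 members, Hif1a, Adm, Pdk1 and Vegfa, against 14.5% of all tested genes. The DESeq2 Wald test called 1 member, Adm, and 5.49% of the genes for which it gave an adjusted p. The median log2 fold change of the 29 was -0.05, that of all tested genes 0.01, and 12 members lay above 0 and 17 below. The p-values measure the spread between these libraries, each from 1 animal.

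**Figure D1:**
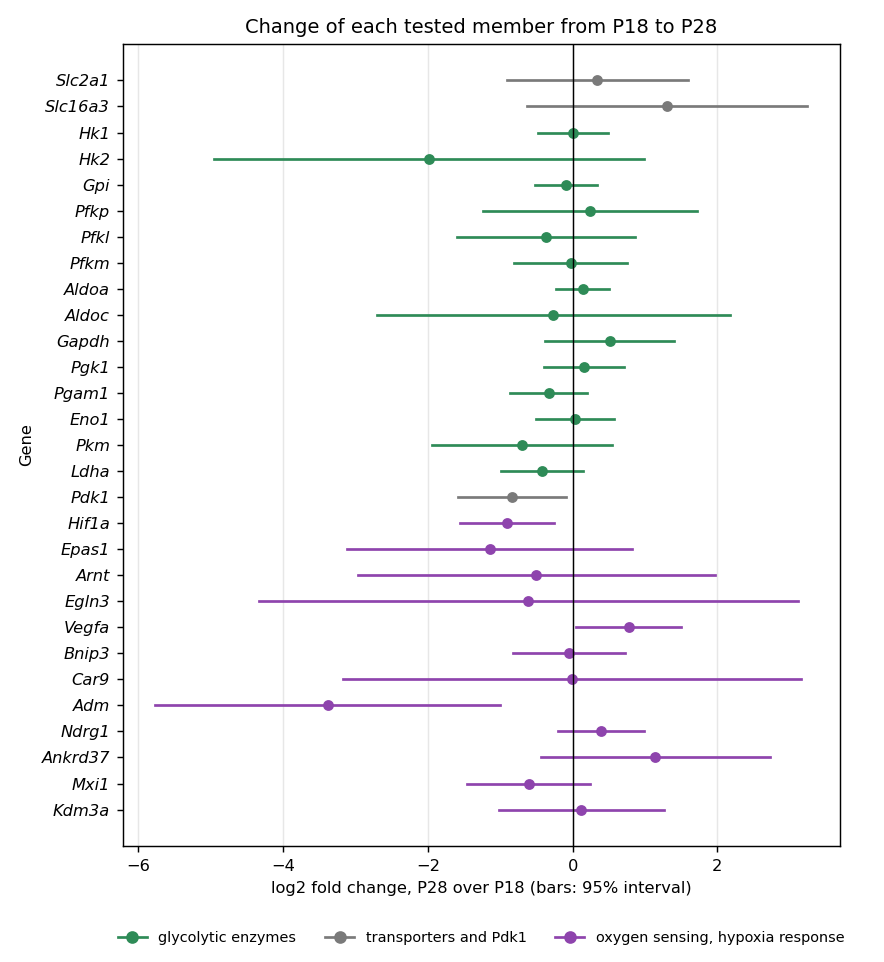
Log2 fold change from P18 to P28 of each of the 29 tested members, in pathway order from transporters to hypoxia targets; points are edgeR estimates over 4 libraries per age and bars are 95% intervals. The intervals of Hif1a, Adm, Pdk1 and Vegfa leave out 0 before adjustment, and those of Hk1, Gpi, Aldoa, Pgk1 and Eno1 are narrow and span 0.

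Glucose enters cells through GLUT1, the product of Slc2a1, and lactate leaves through MCT4, the product of Slc16a3. Slc2a1 lay at 37.2, 14.4, 18.7 and 35.0 CPM at P18 and at 34.2, 59.6, 7.26 and 32.7 CPM at P28 (log2 fold change 0.34 ± 0.58, SE; 95% interval -0.91 to 1.60). Its lowest and its highest library were both of P28, and the ages overlapped. Slc16a3 lay at 23.2, 7.24, 0.342 and 9.32 CPM at P18 and at 12.98, 19.6, 38.6 and 27.9 CPM at P28 (edgeR log2 fold change 1.31 ± 0.89, adjusted p = 0.545). Only P18 replicate 1 reached into the range of the P28 libraries, and without it the log2 fold change was 2.14 (edgeR adjusted p = 0.322). Slc2a3, which encodes the high-affinity transporter GLUT3, is listed at 0 in all 8 libraries.

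Among the enzymes of the preparatory steps of glycolysis, which phosphorylate the sugar and split it, Aldoa, Gpi and Hk1 had the narrowest intervals. Aldoa, the aldolase of muscle and most other tissues, lay at 446, 445, 439 and 452 CPM at P18 and at 564, 434, 533 and 429 CPM at P28. The P18 libraries lay close together (445 ± 5.54 CPM, SD, n = 4), and the P28 libraries fell to both sides of them (490.0 ± 68.9 CPM). The 95% interval of its fold change was 0.854 to 1.42. Gpi, which turns glucose 6-phosphate into fructose 6-phosphate, lay at 258, 253, 276 and 266 CPM at P18 and at 283, 272, 172 and 262 CPM at P28, so that P28 replicate 3 was low and the others lay together (fold interval 0.700 to 1.26). Hk1, the hexokinase of most resting tissues, had means of 86.1 ± 12.98 and 86.7 ± 10.8 CPM, a log2 fold change of 0.01 ± 0.22 and a fold interval of 0.719 to 1.41.

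Isozymes of the same steps had wider intervals. Hk2, the inducible hexokinase, lay at 0.0904, 7.71, 2.31 and 2.44 CPM at P18 and at 0.294, 1.15, 0.897 and 0.832 CPM at P28 (edgeR log2 fold change -1.98 ± 1.37, adjusted p = 0.551). P18 replicates 2, 3 and 4 were above every P28 library and replicate 1 below them, at a single count; without P18 replicate 2 the log2 fold change was -1.04 (edgeR adjusted p = 0.856). Aldoc, the brain-type aldolase, ran from 0.271 to 16.9 CPM at P18 and from 1.66 to 17.7 CPM at P28. The 3 genes for phosphofructokinase, the committed step of the pathway, had log2 fold changes of 0.24 ± 0.68 (Pfkp, platelet type), -0.37 ± 0.57 (Pfkl, liver type) and -0.03 ± 0.36 (Pfkm, muscle type). Pfkm ranged from 27.8 to 84.2 CPM at P18 and from 37.4 to 61.2 CPM at P28. Pfkp ranged from 3.71 to 32.99 CPM at P18 and from 9.99 to 29.4 CPM at P28, and the ages overlapped for all 3. Tpi1, which encodes triosephosphate isomerase, the enzyme that makes both products of the split usable, is listed at 0 in all 8 libraries, although glycolysis cannot run without it; no level or change is read from it. Markers of skeletal muscle, whose fibres are rich in Aldoa and Pfkm, summed to 3.82 to 11.8 CPM at P18 over 10 genes. At P28 the sum ran from 4.89 to 53.4 CPM. It was highest in P28 replicate 1, where Aldoa was also highest. Within P28 it was lowest in replicate 3, where Aldoa lay at 533 CPM. Pfkm was highest in P18 replicate 1, at 84.2 CPM, and lay at 59.0 CPM in P28 replicate 1. The part of muscle in the level of either gene was not tested.

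The pay-off steps yield ATP and end in pyruvate and lactate. Pgk1, Pgam1, Eno1 and Ldha had narrower intervals there than Gapdh and Pkm (fold intervals of 0.769 to 2.65 and 0.261 to 1.45). Pgk1 (phosphoglycerate kinase) lay at 188, 140.3, 128 and 128 CPM at P18 and at 157, 203, 195 and 95.1 CPM at P28, with the highest P28 libraries next to the highest P18 library (log2 fold change 0.16 ± 0.26). Eno1 (enolase) had means of 64.5 ± 4.57 and 66.1 ± 14.5 CPM and a fold interval of 0.703 to 1.49. Pgam1 (phosphoglycerate mutase) ran from 205 to 275 CPM at P18 and from 119 to 256 CPM at P28 (log2 fold change -0.33 ± 0.24). The 2 low P28 libraries were replicates 1 and 3, which were also the lowest for Pkm, at 8.10 and 6.85 CPM against 13.8 to 28.8 CPM at P18. Pkm encodes the pyruvate kinase of most tissues outside the liver, and its log2 fold change was -0.70 ± 0.57 (edgeR adjusted p = 0.632). P28 replicates 1 and 3 also held the highest sums of 8 osteoclast markers, 5629 and 7954 CPM against 1116 to 2110 CPM in the other 6 libraries. Ctsk and Acp5 carried most of these 2 sums, and Mmp9, Atp6v0d2 and Nfatc1 were also highest there. Itgb3 was not: it lay at 6.05 and 12.4 CPM there and was highest in P18 replicate 4, at 28.4 CPM. Calcr and Oscar did not reach the count filter. The part of osteoclasts in Pgam1 or Pkm was not tested.

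Ldha, the lactate dehydrogenase subunit that favours lactate, lay at 80.4, 118, 100.4 and 97.3 CPM at P18 and at 77.9, 104, 54.1 and 60.1 CPM at P28 (edgeR log2 fold change -0.42 ± 0.26, adjusted p = 0.503; fold interval 0.503 to 1.11). P28 replicates 1, 3 and 4 were below every P18 library, replicate 1 only just, and replicate 2 lay within their range. Gapdh, which makes the first energy-rich intermediate, lay at 38.5, 25.6, 16.1 and 22.3 CPM at P18 and at 44.2, 32.1, 46.4 and 23.5 CPM at P28 (log2 fold change 0.51 ± 0.41). Rodent genomes hold many processed copies of Gapdh, and how reads shared with such copies were counted is not given in the sources used here, so its level is uncertain; the same holds for Pgk1, Pgam1, Eno1, Pkm, Aldoa and Ldha to the degree that they have such copies. In RefSeq (GRCr8), Slc16a3 overlaps Csnk1d, Pfkm overlaps Senp1, Ankrd37 overlaps Lrp2bp and Hif1a overlaps a non-coding gene; with the strand setting not given, reads from such partners cannot be told apart.

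Summed over the 15 listed enzymes, Tpi1 at 0 included, the glycolytic message was 1455 to 1525 CPM in the 4 P18 libraries and 1372 to 1539 CPM in the 4 P28 libraries. All P18 libraries fell inside the range of the P28 libraries. The sum is carried by the genes with the most counts, Aldoa, Gpi, Pgam1 and Pgk1, and says little of Hk2, Aldoc or the phosphofructokinases. The median log2 fold change over the 14 tested enzymes was -0.06, with 6 above 0 and 8 below, 0 with an unadjusted p under 0.05 and 0 whose ages did not overlap.

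**Figure D2:**
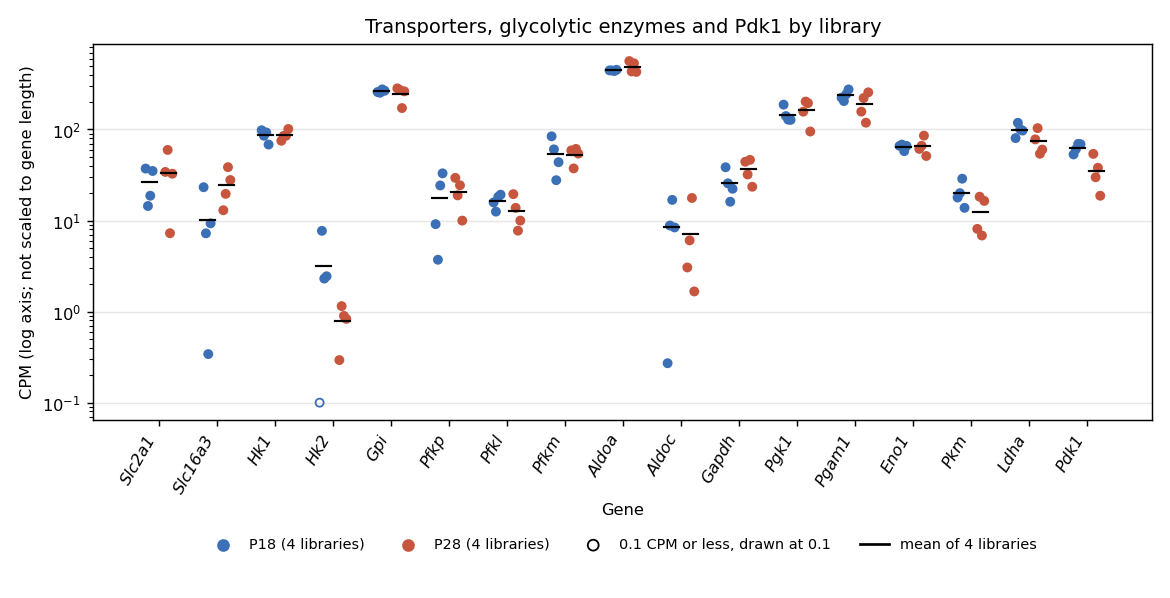
CPM (log axis, not scaled to gene length) of 2 transporters, 14 glycolytic enzymes and Pdk1 in each of the 4 P18 and 4 P28 libraries, with the mean of each age as a bar and values of 0.1 CPM or less drawn as open circles at 0.1. Aldoa, Hk1 and Eno1 form tight groups at both ages, and Gpi does so apart from P28 replicate 3. Hk2, Aldoc and Slc16a3 spread widely, and the Pdk1 libraries of P28 lie mostly below those of P18.

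Pdk1, a classic HIF-1 target, encodes a kinase of the mitochondrial matrix that inactivates pyruvate dehydrogenase and so slows the turning of pyruvate into acetyl-CoA. It lay at 53.2, 60.7, 69.5 and 68.9 CPM at P18 and at 54.0, 29.9, 38.0 and 18.7 CPM at P28 (edgeR log2 fold change -0.84 ± 0.34, adjusted p = 0.282). Only P28 replicate 1 reached into the P18 range, just above its lowest library, and the lowest value was that of P28 replicate 4; without that library the log2 fold change was -0.63 (edgeR adjusted p = 0.298).

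Hif1a, the gene for the oxygen-regulated subunit of HIF-1, lay lower in every P28 library than in any P18 library. It lay at 296, 228, 287 and 273 CPM at P18 and at 138, 193, 184 and 62.4 CPM at P28. The ages did not overlap, P28 replicate 4 was lowest, and the gap between the nearest libraries ran from 193 to 228 CPM. The means were 271 ± 30.4 and 144 ± 59.7 CPM (SD over 4 libraries each). The edgeR log2 fold change was -0.91 ± 0.30 (95% interval -1.56 to -0.26), short of the threshold (adjusted p = 0.174; 0.0548 in the DESeq2 Wald test). Without P28 replicate 4 the log2 fold change was -0.66 (edgeR adjusted p = 0.111). Of the 29 members, 2 had ages that did not overlap, both lower at P28 (Hif1a and Adm) and 0 higher, where 5.54% of all tested genes did so lower and 4.91% higher.

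The other subunits were uneven between animals. Epas1, whose product HIF-2 alpha is abundant in endothelium, lay at 11.5, 131, 209 and 155 CPM at P18 and at 36.5, 169, 17.5 and 5.41 CPM at P28 (edgeR log2 fold change -1.15 ± 0.90, adjusted p = 0.616). P18 replicate 1 was far below the other P18 libraries, and P28 replicate 2 far above the other P28 libraries. Without P18 replicate 1 the log2 fold change was -1.53 and without P28 replicate 2 it was -2.65 (edgeR adjusted p = 0.417 and 0.141). The summed level of 10 endothelial markers was 1001 to 1470 CPM at P18 and 1278 to 2088 CPM at P28. P18 replicate 1 lay at 1236 CPM, inside the P18 range, and P28 replicate 2 held the highest sum. Single markers went different ways. P18 replicate 1 was the lowest P18 library for Cdh5, Tek and Esam and the highest for Kdr, Emcn, Vwf and Egfl7. The part of endothelial cells in Epas1 was not tested. Arnt, the shared partner of both alpha subunits, ran from 4.25 to 26.9 CPM at P18 and from 0 to 19.3 CPM at P28, with the 0 in P28 replicate 4, where 3 counts would be 0.624 CPM. Egln3, the prolyl hydroxylase that HIF itself induces, lay at 14.8, 13.2, 0.0427 and 1.02 CPM at P18 and at 0, 14.0, 0.245 and 4.79 CPM at P28, so that each age held high and near-empty libraries (log2 fold change -0.61 ± 1.71).

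HIF binds a short hypoxia response element with the core ACGTG or GCGTG, and the 250 bases before the RefSeq gene start (assembly GRCr8) were searched for both cores on both strands; 28 of the 31 members in the table had an entry (Slc2a3, Pgk1 and Ndrg1 did not match), and the first listed start was used where there were several. A core was found for 15 of the 28 (53.6%), against 37.9% of 27457 gene starts in the same window; ACGTG was found for 10 (35.7%, against 16.9%) and GCGTG for 12 (42.9%, against 27.2%). The E-box CACGTG, which contains ACGTG on both strands, was present for 4 members, Ldha, Hif1a, Bnip3 and Ankrd37 (14.3%, against 5.79%). A match is a run of letters and not a shown binding site, and these members were listed as hypoxia genes from the outset. Both cores hold the letters CG, and the gene starts of the comparison were not matched to the members for base content. The shares are therefore not read as a trait of the set. The 4 windows below are shown, 5′ to 3′ in the direction of the gene, with every core in capitals (overlapping cores on opposite strands count separately): those of Hif1a and Adm, the members whose ages did not overlap, and those of Ldha and Bnip3, which hold the most cores, 4 each with Slc2a1 and Ankrd37.
Hif1a, chr6:98359648-98359897, plus strand: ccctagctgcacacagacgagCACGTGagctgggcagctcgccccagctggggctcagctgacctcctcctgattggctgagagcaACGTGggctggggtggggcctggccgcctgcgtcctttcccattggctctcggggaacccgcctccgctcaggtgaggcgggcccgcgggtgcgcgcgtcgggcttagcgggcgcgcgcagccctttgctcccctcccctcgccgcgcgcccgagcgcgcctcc
Adm, chr1:174179950-174180199, plus strand: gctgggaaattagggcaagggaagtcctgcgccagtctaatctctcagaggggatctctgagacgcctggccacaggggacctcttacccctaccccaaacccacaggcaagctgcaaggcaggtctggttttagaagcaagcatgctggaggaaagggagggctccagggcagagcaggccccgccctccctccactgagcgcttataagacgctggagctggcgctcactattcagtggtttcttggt
Ldha, chr1:106507842-106508091, plus strand: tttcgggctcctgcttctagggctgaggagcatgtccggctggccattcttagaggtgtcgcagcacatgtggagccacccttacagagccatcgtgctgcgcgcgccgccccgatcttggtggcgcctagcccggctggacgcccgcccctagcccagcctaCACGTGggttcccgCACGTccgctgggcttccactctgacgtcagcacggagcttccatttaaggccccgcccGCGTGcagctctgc
Bnip3, chr1:203154963-203155212, minus strand: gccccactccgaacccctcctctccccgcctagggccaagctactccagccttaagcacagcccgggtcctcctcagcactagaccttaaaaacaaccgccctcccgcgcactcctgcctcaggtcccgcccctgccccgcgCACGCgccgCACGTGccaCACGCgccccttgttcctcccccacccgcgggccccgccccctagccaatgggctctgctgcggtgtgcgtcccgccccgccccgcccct
In this window, Hif1a holds 3 copies of ACGTG, Ldha 3 copies of ACGTG and 1 of GCGTG, and Bnip3 2 of each, while Adm holds 0.

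Targets of HIF lay on both sides of 0. Adm encodes adrenomedullin, a peptide that widens vessels. It lay at 15.3, 19.2, 10.6 and 21.2 CPM at P18 and at 0.587, 2.30, 3.34 and 0 CPM at P28. The ages did not overlap, and the highest P28 library was under every P18 library by a wide margin (16.6 ± 4.65 against 1.56 ± 1.54 CPM). Its log2 fold change was -3.38 ± 1.10 (95% interval -5.766 to -1.0007), with an edgeR adjusted p of 0.168 and a DESeq2 Wald adjusted p of 0.00813; leaving out 1 library, the edgeR adjusted p ran from 0.0983 to 0.331. Adm at P28 rests on few counts, with 0 in P28 replicate 4, where 3 counts would be 0.624 CPM.

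Vegfa, the main growth factor of blood vessels and a well-known HIF target, had its estimate on the other side of 0. It lay at 97.5, 79.9, 39.3 and 66.2 CPM at P18 and at 148, 165, 100.3 and 68.9 CPM at P28. P28 replicates 1, 2 and 3 were above every P18 library, and replicate 4 lay among them (edgeR log2 fold change 0.77 ± 0.33, adjusted p = 0.310). Ankrd37, a small ankyrin-repeat gene often used as a hypoxia reporter, ran from 2.81 to 13.03 CPM at P18 and from 6.48 to 27.9 CPM at P28 (edgeR log2 fold change 1.14 ± 0.73, adjusted p = 0.516), and Ndrg1, a stress-responsive cytosolic protein, from 102 to 213 CPM and from 138 to 249.9 CPM (0.39 ± 0.28, adjusted p = 0.560).

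Bnip3, which drives the removal of mitochondria in low oxygen, was the steadiest of the targets. It lay at 31.4, 30.3, 27.3 and 31.0 CPM at P18 and at 34.5, 23.5, 25.9 and 31.8 CPM at P28 (log2 fold change -0.05 ± 0.36; fold interval 0.565 to 1.65). Its P18 libraries sat inside the range of its P28 libraries. Kdm3a, a histone demethylase, ran from 21.1 to 42.0 CPM at P18 and from 8.53 to 51.4 CPM at P28, and Mxi1, which opposes Myc, from 51.6 to 156 CPM and from 29.4 to 91.1 CPM; their log2 fold changes were 0.12 ± 0.53 and -0.61 ± 0.39. Car9, the carbonic anhydrase taken as a marker of hypoxic tissue, was counted in 6 libraries at 6.49 to 11.4 CPM and had a count of 0 in P18 replicate 1 and P28 replicate 4, where 3 counts would be 0.271 and 0.624 CPM.

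**Figure D3:**
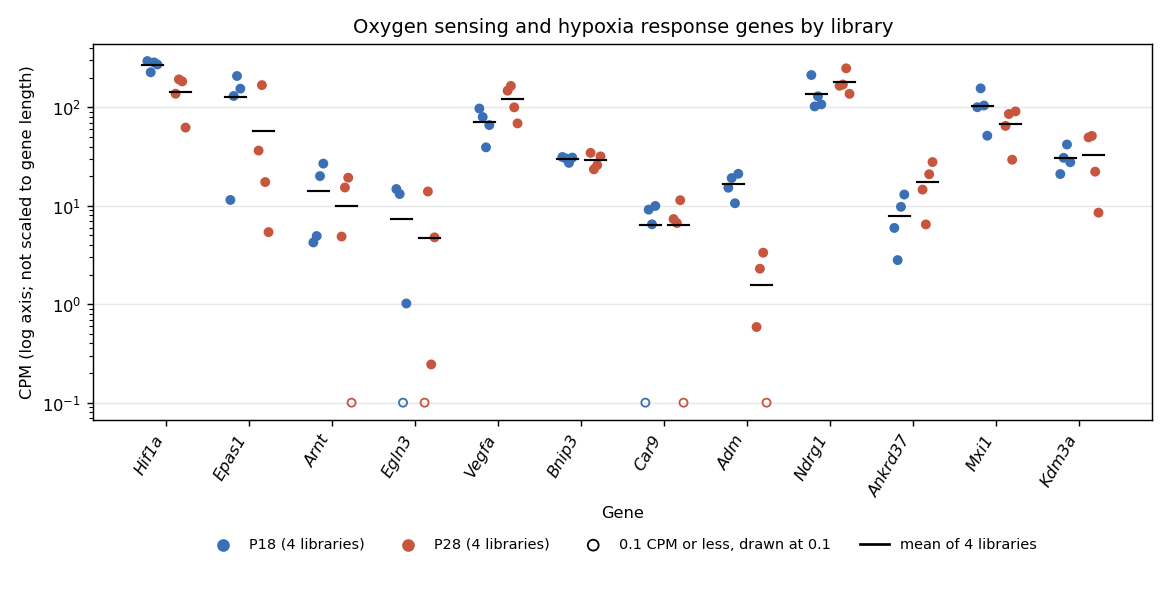
CPM (log axis, not scaled to gene length) of 12 oxygen-sensing and hypoxia-response genes in each of the 4 P18 and 4 P28 libraries, with the mean of each age as a bar and values of 0.1 CPM or less drawn as open circles at 0.1. The ages are apart only for Hif1a and Adm, both lower at P28, while Egln3, Epas1, Arnt and Car9 vary from animal to animal within an age.

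Over the 12 tested genes of oxygen sensing and hypoxia response, the median log2 fold change was -0.28, with 4 above 0 and 8 below, against -0.06 over the 14 enzymes and 0.01 over all tested genes. Leaving out 1 library moved that median between -0.46 and -0.01. Summed markers of cycling cells were lower in every P28 library (360 to 472 CPM over 10 genes) than in any P18 library (578 to 739 CPM), as Hif1a and Adm were. Single cycling markers differed: 3 were lower in every P28 library, 1 (Birc5) was higher in every P28 library, and the others overlapped. Of all tested genes, 5.54% were lower in every P28 library than in any P18 library and 4.91% higher. No cycling marker was called in either direction. The summed ligament markers were higher in every P28 library, by a narrow gap, but single markers differed: Tnmd was called lower at P28 and Fmod higher (edgeR adjusted p = 0.00608 and 0.0264), and the other 6 tested markers overlapped between the ages. The part of these cells in Hif1a or Adm was not tested.

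The spread between animals differed within the set. The SD of log2 CPM between libraries of an age had a median of 0.42 over the 14 enzymes, 0.92 over the 12 hypoxia genes and 0.67 over all tested genes. Aldoa (0.14), Bnip3 (0.19), Hk1 (0.20) and Eno1 (0.23) were the steadiest members, and Egln3 (3.13), Car9 (3.04) and Arnt (2.56) the least steady. Spread falls with level across all genes, and the enzymes had more counts than the hypoxia genes (median mean log2 CPM 5.85 against 4.84), so the medians are not a comparison at equal level. Epas1 stands out at its level, with a mean log2 CPM of 5.59 and an SD of 1.99.

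**Figure D4:**
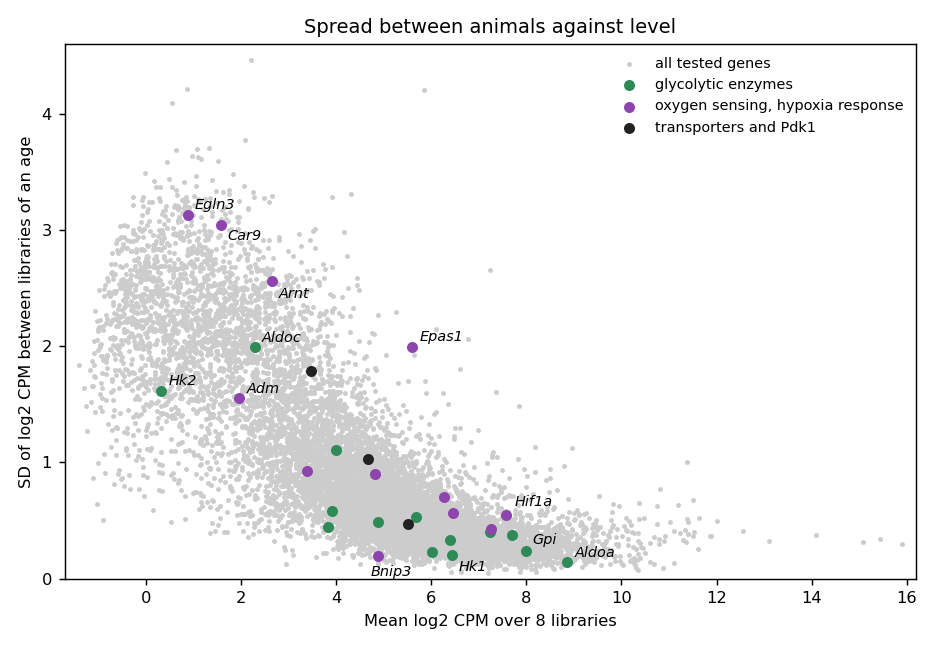
SD of log2 CPM between the 4 libraries of an age (root mean square of both ages) against the mean log2 CPM over 8 libraries, for all 10472 tested genes (grey) and the 29 members. Aldoa, Hk1 and Bnip3 lie at the low edge of the cloud, Egln3, Car9 and Arnt at the top left, and Epas1 above the genes of its level.

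Ratios of related genes within a library can show a switch between isoforms, and 8 pairs could be compared. Scaling between libraries enters these ratios only through the prior count of 2, which weighs most where counts are low. None passed after adjustment over the 8 (exact permutation test, 2-sided; the smallest p that 4 against 4 allow is 0.0286, and the smallest adjusted p here was 0.457). At that floor, a pair fully apart on its own could not pass this adjustment, so no lack of a switch is read from the result. Of the 8, the pair of lactate transporters had the largest difference. The log2 ratio of Slc16a3 (MCT4, which exports lactate) to Slc16a1 (MCT1, which carries lactate both ways) was 1.45, -1.87, -6.32 and -1.39 at P18 and 0.92, 3.73, 2.52 and 5.69 at P28. P18 replicate 1 lay above P28 replicate 1, and the other P18 libraries lay below every P28 library. The means differed by 5.25 (exact permutation p = 0.0571, adjusted p = 0.457). Slc16a3 had 8 counts in P18 replicate 3, and Slc16a1 had 13 in P28 replicate 2 and 2 in P28 replicate 4. The ratios of these libraries thus rest on few counts.

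Ldha and Ldhb, the subunits whose mix sets the form of lactate dehydrogenase, had similar mean ratios at both ages, with P28 replicate 4 lowest at -0.86. As counts are not divided by transcript length, the level of the ratio is not read as that mix. The ratio was -0.22 ± 0.18 at P18 and -0.14 ± 0.52 at P28 on the log2 scale (difference 0.08, exact permutation p = 0.800). The differences of the other pairs were -1.10 for Hk2 over Hk1, 1.00 for Pfkp over Pfkl, 0.49 for Pfkm over Pfkl, -0.06 for Aldoc over Aldoa, -0.89 for Pdk1 over Pdk2 and -0.56 for Epas1 over Hif1a, with exact permutation p-values of 0.200 to 0.971. The ages overlapped in all 8 pairs.

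**Figure D5:**
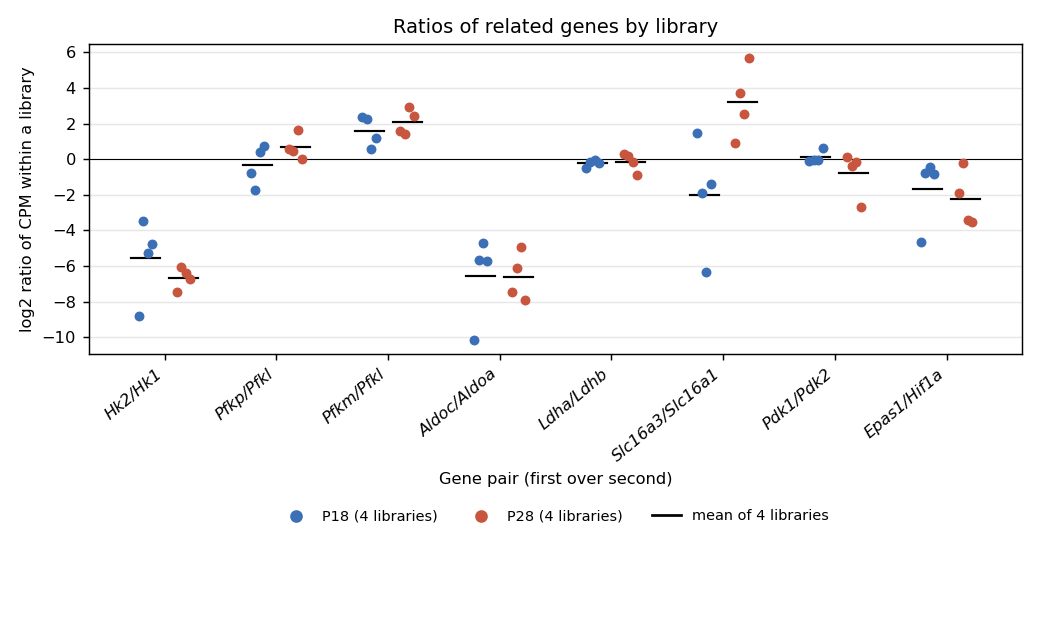
Log2 ratio of CPM (prior count 2) of 8 pairs of related genes within each of the 4 P18 and 4 P28 libraries, with the mean of each age as a bar. The ratio of Slc16a3 to Slc16a1 lies near -2.03 on average at P18 and 3.22 at P28 with 1 P18 library among those of P28. The mean ratio of Ldha to Ldhb is similar at both ages, with P28 replicate 4 lowest.

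No gene of the related lists was called by edgeR either. Of 19 tested isozymes, regulators and transporters of glycolysis outside the set, 0 were called higher and 0 lower, with a median log2 fold change of -0.14. An unadjusted p under 0.05 was found for 3, all lower at P28, beside 14.5% of all tested genes. Slc16a1 lay at 8.41, 26.8, 37.4 and 24.7 CPM at P18 and at 6.81, 1.36, 6.605 and 0.416 CPM at P28, without overlap (edgeR log2 fold change -2.66 ± 0.88, adjusted p = 0.176; DESeq2 Wald adjusted p = 0.0262). Slc2a10, the transporter GLUT10, had means of 101 ± 19.6 and 63.2 ± 8.83 CPM, also without overlap, and Adpgk, a glucokinase that uses ADP, 134 ± 19.3 and 83.6 ± 30.9 CPM (edgeR adjusted p = 0.200 and 0.269). Ldhb, the next gene by p, had means of 114.5 ± 11.5 and 81.0 ± 22.9 CPM (adjusted p = 0.367).

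Of 40 tested HIF targets and oxygen-sensing genes outside the set, 0 were called in either direction, and the median log2 fold change was -0.10. For 6 of them the unadjusted p was under 0.05 (4 higher, 2 lower), beside 14.5% of all tested genes. Cited2, which competes with HIF for its coactivator, had means of 71.6 ± 7.55 and 139 ± 50.5 CPM without overlap (edgeR log2 fold change 0.95 ± 0.27, adjusted p = 0.117; 0.0423 without P28 replicate 4). The demethylase gene Kdm4c lay at 11.6 ± 7.46 and 1.01 ± 0.80 CPM, and Higd1a, a mitochondrial protein induced by hypoxia, at 127 ± 4.89 and 206 ± 81.5 CPM, both without overlap (edgeR adjusted p = 0.148 and 0.229). Members of this list thus lay on both sides, as in the set itself.

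Downstream of pyruvate, 29 genes of pyruvate oxidation and the citric acid cycle were tested; 0 were called, 7 lay above 0 and 22 below, and the median log2 fold change was -0.34; of all 10472 tested genes, 5267 lay above 0 and 5205 below. Before adjustment, 8 of the 29 had a p under 0.05, of which 6 were lower and 2 higher, beside the 14.5% of all tested genes. Cs, the citrate synthase that opens the cycle, lay at 65.2, 63.9, 78.2 and 63.7 CPM at P18 and at 38.4, 53.5, 21.6 and 33.9 CPM at P28, without overlap (edgeR log2 fold change -0.88 ± 0.32, adjusted p = 0.216). Idh3a, a subunit of isocitrate dehydrogenase, had means of 101 ± 25.4 and 54.1 ± 24.6 CPM (adjusted p = 0.265). Mpc2, a subunit of the carrier that takes pyruvate into mitochondria, lay at 95.8 ± 11.9 and 177 ± 56.0 CPM, and Pck2, the mitochondrial enzyme that makes phosphoenolpyruvate, at 71.8 ± 24.4 and 136 ± 20.1 CPM, both without overlap (0.89 ± 0.24 and 0.93 ± 0.28 on the log2 scale; adjusted p = 0.103 and 0.144 by edgeR).

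Of 10 tested genes of the pentose phosphate pathway, which makes NADPH and ribose, 0 were called and the median log2 fold change was 0.04. Prps1, which activates ribose for nucleotide synthesis, had means of 67.3 ± 14.9 and 31.1 ± 12.9 CPM without overlap (edgeR log2 fold change -1.12 ± 0.37, adjusted p = 0.172), and Taldo1 (transaldolase) and H6pd gave 0.45 ± 0.23 and -1.15 ± 0.87 on the same scale. Among 14 tested genes of glycogen metabolism, 0 were called and the median was 0.01. Phkg2, a subunit of phosphorylase kinase, lay at 22.3 ± 6.85 and 41.5 ± 5.98 CPM without overlap (edgeR adjusted p = 0.280), and Gys1 (glycogen synthase), Gbe1 (the branching enzyme) and Pygl (a glycogen phosphorylase) had log2 fold changes of -1.005 ± 0.54, -0.72 ± 0.54 and -1.16 ± 1.01.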

How the data were processed

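Raw counts per gene symbol were deposited by the authors for RNA of cervical PDL, taken by laser micro-dissection and made into libraries with the SMARTer Ultra Low input RNA kit, per the labels' protocols. The build rn6 and the tools HTSeq 0.9.1, STAR 2.5.3a and edgeR 3.16.5 are named, without their roles, per the submitters' processing notes. For annotation, strand setting and reads with several matches, the choice is not given in the sources used here. Another 40 columns of the count table were left out. A second, normalized table was not used here.

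Each age held 4 libraries of separate animals. The whole table was fitted with edgeR 4.0.16 in R 4.3.3 (quasi-likelihood test, 2-sided, TMM, age as the only term, expression filter by age with a minimum count of 10), and p was adjusted by Benjamini-Hochberg over 10472 genes, called under 0.05. Log2 fold changes are P28 over P18 ± SE, with 95% intervals from the same fit; CPM are mean ± SD (n = 4). Ratios used log2 CPM with a prior count of 2. The fit was tested on simulated data (3 draws), with changes placed in genes above a mean of 20 CPM. It called 12.7% of 2-fold and 70% of 4-fold changes, with 4.59% of its calls false. Most 2-fold changes were thus missed there. The limit of 3 counts covers counting error only, as PCR copies of a molecule are counted as separate reads; 3 counts were 0.108 to 0.624 CPM. The 95% intervals of fold changes also hold the spread between libraries.

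Members and lists were chosen with earlier results of these data known. The text names all 32 members, the called or up to 4 lowest-p genes of each of 5 related lists (Pfkfb3, Pfkfb4, Gys1, Gbe1 and Ppp1r3c stand in more than 1), and the partners in the ratios. The values of 2 genes that this rule names are not reported here; they stay in the fit and in the counts of their lists. Of 10 planned ratios, those with Slc2a3 and Egln1 could not be formed. Alternatives were upper-quartile scaling, scaling by the size factors of DESeq2 1.42.0, its Wald test, voom with quality weights in limma 3.58.1, no filter, 10 counts in 4 libraries, a replicate block, and leaving out each library. Rn6 coordinates were not used; promoter windows are from RefSeq on GRCr8, matched by symbol.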

Additional observations from a re-analysis of the deposited data

Results flagged for a closer look

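Among 74 groups of 4 libraries checked (the log2 CPM of 29 members and 8 log2 ratios at each age), 6 held 1 library far from the other 3 by Dixon's test at its 95% level; chance flags about 1 in 20. Gpi lay at 7.43 log2 CPM in P28 replicate 3, the lowest of its age. Epas1 lay at 3.54 log2 CPM in P18 replicate 1, and its log2 ratio to Hif1a there was -4.67, both the lowest of their age. Car9 lay at -2.97 log2 CPM, the value given to a count of 0 by the prior count, in P18 replicate 1 and in P28 replicate 4 (-2.97). The log2 ratio of Pdk1 to Pdk2 was highest in P18 replicate 4, at 0.65. P18 replicate 1 holds 3 of the 6 values.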

How the results depend on the processing

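No member was called by edgeR under any scaling, filter, block or left-out library that was run; the DESeq2 Wald test called 1 lower (Adm). Of genes in the related lists, that test called 3 higher and 2 lower and voom with quality weights 3 higher, and leaving out 1 library gave 0 to 1 in each direction. Over all genes, 54 were higher and 44 lower; the DESeq2 Wald test called 297 and 263, voom 175 and 132, the fit with a replicate block 16 and 10, and fits without 1 library 4 to 110 and 5 to 105 (fewest without P18 replicate 2, most without P28 replicate 4). Replicate numbers follow the order of the libraries and do not pair the animals (correlation of deviations -0.020 to 0.0019 for same numbers). The block on these numbers called 0 members and 0 ratio pairs, and it is no test of a pairing of animals. Of 8 ratios, 0 passed in any setting, but 3 against 4 libraries cannot go below an exact p of 0.0571 and sign flips of 4 pairs not below 0.125. With all 8 libraries, a pair fully apart on its own could not pass the adjustment either.

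Log2 fold changes near 0 changed sign. Leaving out 1 library, they ran from -0.093 to 0.68 for Slc2a1, -0.088 to 0.078 for Hk1, -0.16 to 0.049 for Gpi, -0.11 to 0.74 for Pfkp, -0.26 to 0.27 for Pfkm, -1.25 to 0.27 for Aldoc, -0.12 to 0.14 for Eno1, -1.05 to 0.022 for Arnt, -0.15 to 0.039 for Bnip3, -0.45 to 0.40 for Car9, -0.17 to 0.43 for Kdm3a and -0.43 to 0.27 for Pdk2. The difference in log2 ratio ran from -1.25 to 0.56 for Aldoc over Aldoa and from -0.058 to 0.32 for Ldha over Ldhb, and was 0.014 for Aldoc over Aldoa with a prior count of 0.5. Upper-quartile scaling gave -0.020 for Hk1, and voom with quality weights gave -0.0088 for Hk1, 0.17 for Pfkm, 0.21 for Car9 and -0.23 for Pdk2. With the replicate block, Pfkm was 0.054, Egln3 0.26, Car9 0.19, Kdm3a -0.14 and Pdk2 -0.067. Other values kept their sign but moved by over 1.5 times when 1 library was left out: 0.89 to 2.14 for Slc16a3, -2.38 to -1.04 for Hk2, -0.65 to -0.19 for Pfkl, 0.065 to 0.20 for Aldoa, 0.33 to 0.78 for Gapdh, 0.035 to 0.34 for Pgk1, -0.52 to -0.17 for Pgam1, -2.65 to -0.78 for Epas1, -2.16 to -0.0048 for Egln3, 0.20 to 0.68 for Ndrg1, -0.83 to -0.35 for Mxi1, 0.42 to 0.86 for Higd1a, 0.27 to 0.57 for Taldo1, -1.61 to -0.77 for H6pd, -1.62 to -0.72 for Gys1, -0.99 to -0.37 for Gbe1 and -2.70 to -0.62 for Pygl. The cause was not tested.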

Other observations

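Of the 17337 gene symbols, 4197 had a count of 0 in all 8 libraries, Tpi1 and Slc2a3 among them.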
